A study of Mus musculus with 6 samples.

Results

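The collagen genes of 6 mouse tumours were measured by RNA-seq. The hosts of 3 tumours ate a normal diet (ND) and those of the other 3 a high cholesterol diet (HCD). All gene symbols of the form Col, number, a, number were taken as members, which gave 44 genes of the 34745 in the expression table. The mice were C57BL/6J, a common inbred strain, and per the labels every tumour came from B16F10 cells, a mouse melanoma line, placed under the skin of the right flank. Both diet groups are labelled with the same cells, so the diet was the only stated difference between them, and the labels give no age, sex, diet composition or time on diet. They number the tumours 1 to 3 in each diet without saying how these were separated as replicates, so p-values here reflect only the spread among the 6 tumours, which may be technical.

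Collagens are triple-helical proteins of the extracellular matrix. Fibrillar collagens (types I, II, III, V, XI, XXIV and XXVII) build the load-bearing fibres made chiefly by fibroblasts, type IV forms the sheet-like network of basement membranes under epithelia and around vessels, and the other classes form beaded filaments, short-chain lattices, fibril-surface molecules (FACIT), membrane-bound forms and anchoring fibrils. In tumours, stromal cells are a usual source of fibrillar collagen and vessels a usual source of type IV. Levels are given in FPKM, a count divided by gene length and library size, so that genes can be compared, and the libraries held 20351637 to 26228074 gene counts. In a tumour piece, fewer cells of a type and less RNA per cell cannot be told apart.

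The tumours were labelled as melanoma, but of 6 melanocyte genes Tyr, Dct and Mlana had no count in any library, and the summed level of all 6 was at most 0.975 CPM (counts scaled to a common library size). Of 6 hepatocyte genes, all were present in every library, with summed levels of 6319 to 8401 CPM, of which albumin (Alb) gave 2977 to 4371. The keratins Krt18 and Krt8 gave 1459 to 2048 and 857 to 1214 CPM. Afp gave 464 to 858, Hnf4a 137 to 218 and Ttr only 6.85 to 15.5 CPM. The groups are therefore called tumours labelled as B16F10. Stromal markers were present in every tumour. Skeletal muscle genes summed to 1709 CPM in ND 2, 1712 in HCD 1 and 194 in HCD 2, against 9.97 to 22.6 in the other 3, and adipocyte genes followed the same split at 44.1 to 186 against 2.97 to 6.12 CPM. Car3 gave most of the adipocyte sum in ND 2, HCD 1 and HCD 2, at 45.7, 174 and 28.7 CPM. Cfd reached 10.2 CPM, and Adipoq, Plin1, Lep and Cidec were each at most 1.74 CPM. Keratinocyte genes summed highest in HCD 3, at 29.4 CPM against 5.15 to 6.97 elsewhere. Krt14 and Krt5 gave most of the sum in HCD 3, at 13.4 and 11.8 CPM. Krt10 was highest in ND 3, at 3.35 CPM against 3.12 in HCD 3. Krt1 and Dsg3 were each at most 0.829 CPM, and Lor had no count.

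No collagen gene passed the diet test. Of the 44 members, 35 had enough counts to be tested (10 of 11 fibrillar, 3 of 6 type IV, both multiplexins, 5 of 6 type VI, all 3 short-chain, 7 of 9 FACIT, 2 of 4 transmembrane, the anchoring fibril gene and both others). With edgeR's quasi-likelihood test and Benjamini-Hochberg adjustment over 15539 genes, 0 collagens and 0% of all genes were called at an adjusted p of 0.05, and the smallest adjusted p of a collagen was 0.839. No tested collagen had an unadjusted p under 0.05, where 1.81% of all genes were higher and 3.48% lower in HCD, and no tested collagen had all 3 HCD tumours above or below all 3 ND tumours, where 4.75% and 6.36% of tested genes did. Among the untested members, Col2a1 was lower and Col17a1 higher by FPKM in all 3 HCD tumours, on very few counts. For Col17a1, ND 1 and HCD 1 each had 1 count, so only library size set them apart, at 0.00695 and 0.00780 FPKM. The shares above cover tested genes, and none was taken for untested genes. In other fits 0 to 3 collagens had an unadjusted p under 0.05, with 0 in limma-voom, 1 in DESeq2's Wald test and 3 without ND 2. Of the 35 tested collagens, 19 had a negative log2 fold change (HCD over ND), beside 47% of all genes, and the median was -0.03 against 0.01 for all genes. This balance moved with single tumours: 29 were negative without HCD 2 and 13 without ND 1. Without ND 2 and HCD 1, where the summed muscle genes were highest, 22 of 34 were negative. HCD 2, which also held muscle and adipocyte transcripts, stayed in that fit. DESeq2's Wald test called 6 genes, none a collagen, and gave 759 genes at an unadjusted p under 0.05 against 823 in the edgeR test.

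**Figure D1:**
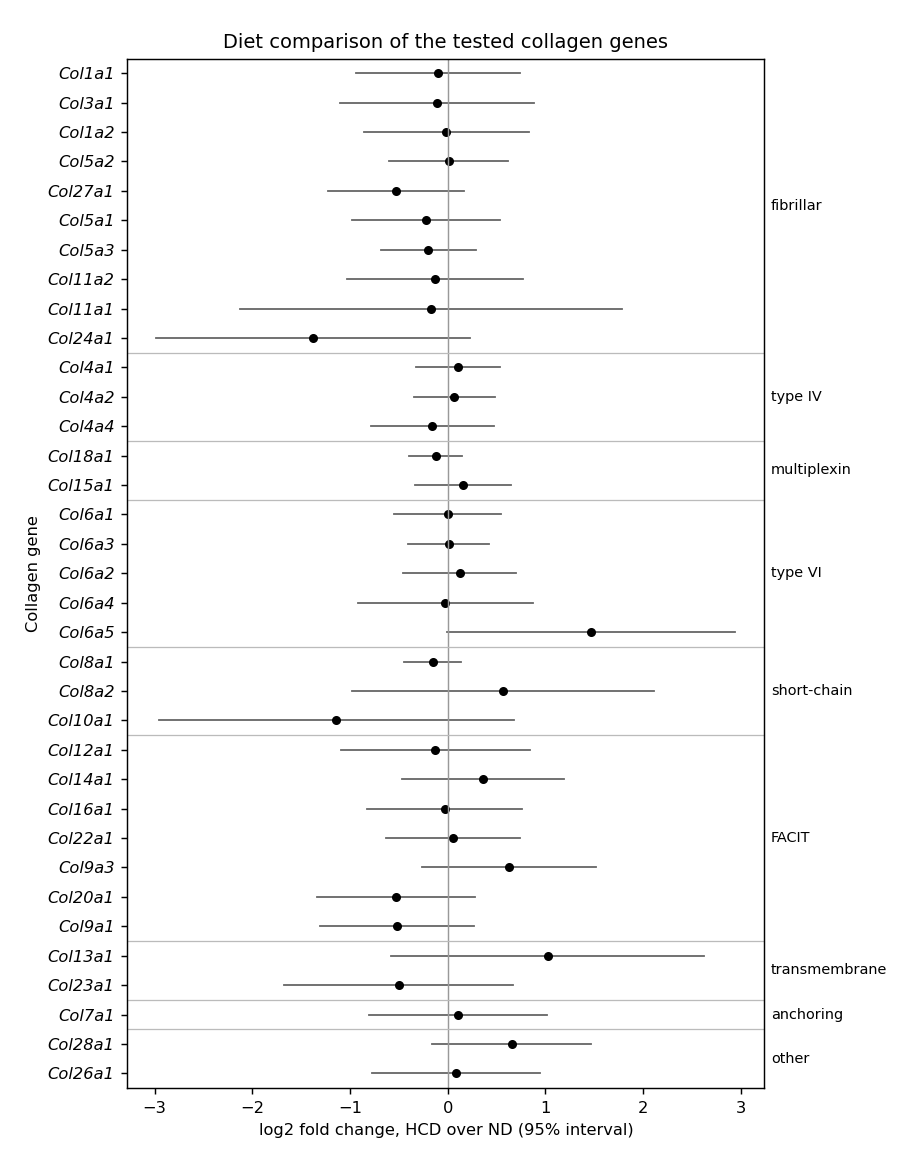
Log2 fold change of HCD over ND for each of the 35 tested collagen genes (points) with its 95% interval (lines), grouped by class on the right. Every interval includes 0, and those of Col11a1, Col10a1 and Col24a1, all below 1 FPKM, are the widest.

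The summed collagen level was 521.1, 369.9 and 450.6 FPKM in ND 1 to 3 and 394.3, 593.7 and 337.6 in HCD 1 to 3. The lowest and highest tumours both belonged to the HCD group, so its spread enclosed the ND values. The means were 447 ± 75.6 (SD, n = 3) in ND and 442 ± 134 (SD, n = 3) in HCD, a log2 ratio of -0.02. Fibrillar genes made up 38.2% ± 4.91 (SD, n = 6) of the sum, type IV 27.1% ± 2.13, short-chain genes 15.4%, type VI 9.08%, multiplexins 6.32% and FACIT genes 3.54%. Transmembrane, anchoring fibril and other collagens each summed to under 1 FPKM on average. The fibrillar sum was 239, 125 and 172 FPKM in the ND tumours and 139, 250 and 115 in the HCD tumours, so its range was 2.17-fold and its groups overlapped. The type IV sum was 127, 105 and 112 FPKM in ND and 109, 161 and 101 in HCD, a 1.60-fold range. The ratio of fibrillar to type IV level was 1.54 ± 0.346 (SD, n = 3) in ND and 1.32 ± 0.208 in HCD, again with overlap. By length of the principal transcript, the main isoform of each gene, it was 2.52 ± 0.552 and 2.17 ± 0.368. The class shares also depended on the length used. By principal length, fibrillar genes made up 46.4%, type IV 20.1% and short-chain genes 10.7%. Multiplexins, at 9.64%, then came before type VI, at 8.96%, and FACIT genes made up 3.81%.

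**Figure D2:**
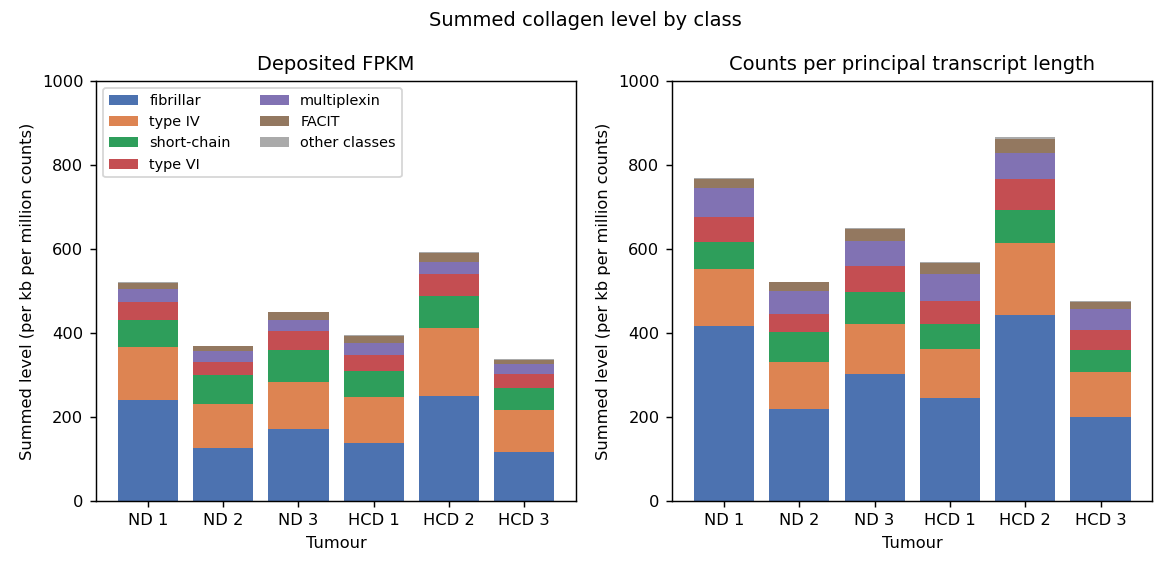
Summed level of collagen classes in each tumour as stacked bars, by deposited FPKM (left) and by counts per length of the principal transcript (right, scaled to library size). HCD 2 is the tallest bar and HCD 3 the shortest on both scales, and the fibrillar share is larger on the right (46.4% against 38.2%).

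Gene length was a choice that moved levels between collagens. The deposited FPKM rest on a gene length that was a median of 1.27 times the length of the principal transcript in GENCODE M21, with a range of 0.893 to 5.30 times over the members. Among the most abundant collagens Col1a2 stood out, at 16209 bases in the table against 5348 for its principal transcript, then Col3a1 at 10734 against 5564. Of less abundant members, Col25a1 had the largest ratio, at 13901 against 2624, and Col18a1 was at 11213 against 4791. By principal length, the mean level over 6 tumours put Col3a1 first (92.9), then Col1a2 (85.2), Col4a1 (78.1), Col1a1 (73.0) and Col8a1 (65.4). By FPKM the order was Col4a1 (73.3 ± 14.2, SD, n = 6), Col8a1 (65.4 ± 8.54), Col1a1 (62.4 ± 22.3), Col3a1 (48.1 ± 20.3), Col4a2 (45.8 ± 8.32) and Col1a2 (28.1 ± 10.2). Neighbours from Col4a1 to Col4a2 in this order lay within their SDs. A change in length scales every tumour of a gene alike and so leaves the diet comparison of single genes untouched.

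**Figure D3:**
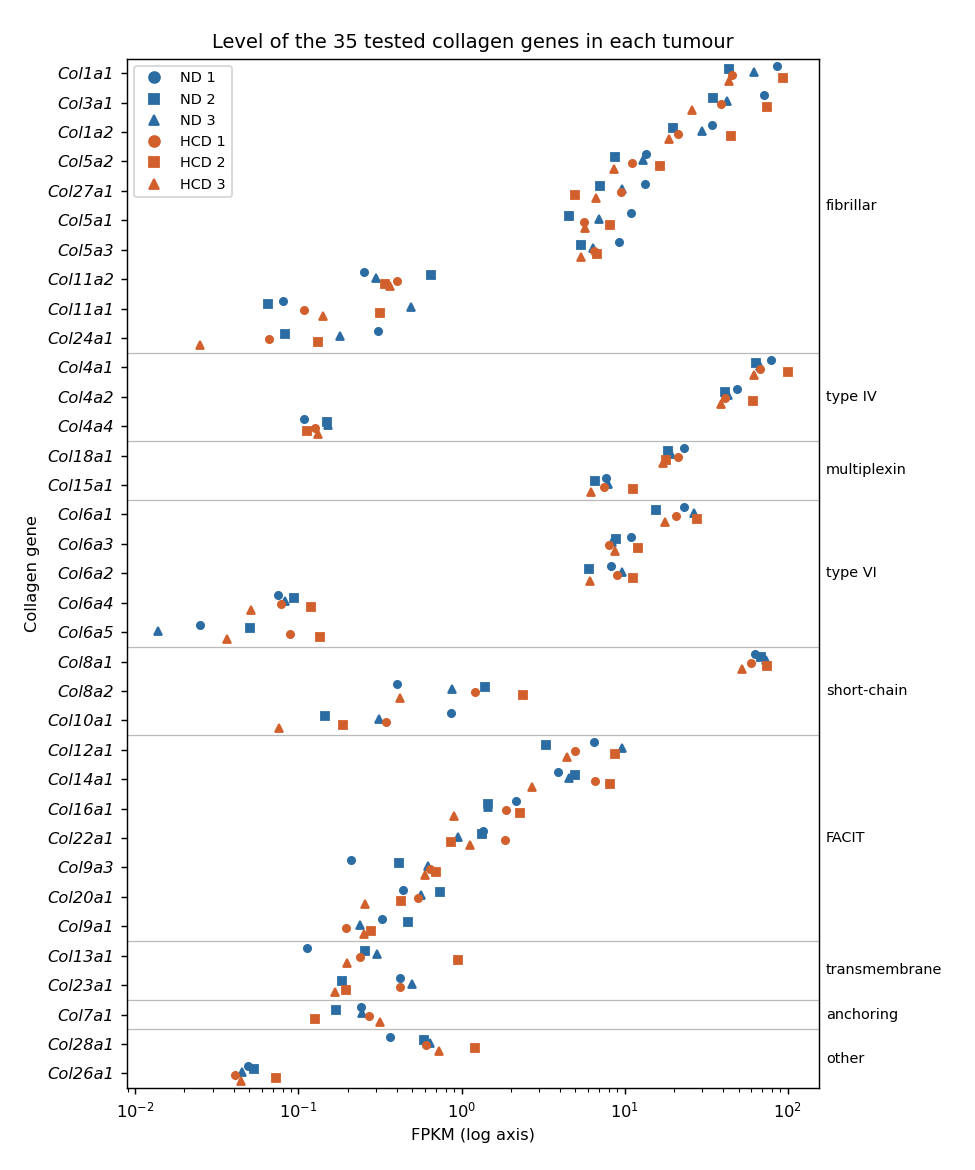
FPKM (log axis) of each of the 35 tested collagen genes in each tumour, blue for ND and orange for HCD, with 1 symbol per tumour number. Col1a1, Col1a2, Col3a1, Col4a1, Col4a2 and Col8a1 lie at 18.8 to 99.9 FPKM, while all type XI and XXIV values lie under 1 FPKM, and blue and orange points intermix in each gene.

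RefSeq windows (GRCm38.p6) were found for 35 of the 44 members (38 windows) and were searched on both strands for 3 promoter motifs. The first was CCAAT, a box known to be bound by NF-Y. The second was the GC box, spelled GGGCGG. The third was the TATA box, spelled TATAAA. No match overlaps another in the windows printed. The 250 bases before the first transcribed base are printed for Col3a1 (chr1:45311288-45311537, plus strand) and Col8a1 (chr16:57754738-57754987, minus strand), with matches in capitals. They were chosen as 2 abundant collagens whose windows hold no GENCODE exon, unlike the windows of Col1a2 and Col4a1.
Col3a1: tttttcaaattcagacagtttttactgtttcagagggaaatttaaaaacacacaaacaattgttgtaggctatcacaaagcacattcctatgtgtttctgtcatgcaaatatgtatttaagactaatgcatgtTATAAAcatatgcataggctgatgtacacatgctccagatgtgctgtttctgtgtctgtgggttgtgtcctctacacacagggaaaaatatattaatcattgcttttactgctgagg
Col8a1: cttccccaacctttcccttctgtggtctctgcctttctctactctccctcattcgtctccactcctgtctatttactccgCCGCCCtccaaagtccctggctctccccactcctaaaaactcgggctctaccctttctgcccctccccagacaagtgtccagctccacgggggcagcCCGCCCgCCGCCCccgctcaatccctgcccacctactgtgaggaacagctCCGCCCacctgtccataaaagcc
The Col3a1 window held TATAAA 117 bases before the start. The Col8a1 window held CCGCCC, the reverse complement of GGGCGG, starting 170, 73, 66 and 23 bases before the start. Over all 32851 windows, 33.8% held CCAAT, 32.7% GGGCGG and 12.4% TATAAA, and over the 38 collagen windows 34.2%, 57.9% and 13.2% did. Such a match says only that the letters are present.

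Among the fibrillar genes, 9 of 10 had a negative fold change, with a median of -0.15, and none passed the test. This count was 4 without ND 1 and 5 without HCD 1, so it rested on few tumours. Col1a1 (chr11:94936224-94953042), which encodes the alpha1 chain of type I collagen, measured 85.9, 43.6 and 62.6 FPKM in the ND tumours and 45.3, 93.2 and 43.8 in the HCD tumours. ND 1 and HCD 2 were high in both diets, and the groups overlapped throughout. Its log2 fold change was -0.10 ± 0.36 (SE), with a 95% interval of -0.94 to 0.74. Its partner Col1a2 (chr6:4504814-4541544) measured 34.3, 19.8 and 29.9 FPKM in ND and 21.2, 44.7 and 18.8 in HCD, with a fold change of -0.01 ± 0.36. Col3a1 (chr1:45311538-45349706), the type III chain of extensible tissues, measured 71.5, 34.7 and 42.5 FPKM in ND and 39.1, 75.0 and 26.0 in HCD (-0.11 ± 0.42). These 3 genes shared the same high tumours, ND 1 and HCD 2.

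Type V chains, which nucleate fibrils and set their width, were lower. Col5a2, next to Col3a1 on chromosome 1, measured 13.5, 8.77 and 13.0 FPKM in ND and 11.1, 16.4 and 8.56 in HCD (0.01 ± 0.26, SE), the only positive fold change among fibrillar genes. Col5a1 (-0.22 ± 0.32) ranged from 4.54 FPKM in ND 2 to 10.9 in ND 1 and Col5a3 (-0.20 ± 0.21) from 5.38 in HCD 3 to 9.27 in ND 1. Col27a1 (chr4:63214004-63334991), a fibrillar collagen best known from cartilage, had among collagens with lower HCD means one of the smallest p-values. It measured 13.4, 7.11 and 9.62 FPKM in ND and 9.49, 5.0 and 6.68 in HCD, and it was lowest in HCD 2, unlike the other abundant fibrillar genes. The group means were 10.0 ± 3.16 (SD, n = 3) and 7.06 ± 2.27, and the fold change was -0.53 ± 0.29 with an interval of -1.23 to 0.17 (edgeR unadjusted p 0.117, adjusted p 0.839). Without ND 1 it came to -0.25.

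Cartilage-type fibrillar chains were scarce. Col11a2 ranged over 0.251 to 0.653 FPKM in ND and 0.338 to 0.402 in HCD (-0.13 ± 0.38), and Col11a1 over 0.0647 to 0.487 in ND and 0.108 to 0.315 in HCD (-0.16 ± 0.83). Col24a1 (chr3:145292472-145552011), a fibrillar collagen of developing bone, measured 0.309, 0.0831 and 0.181 FPKM in ND and 0.0663, 0.132 and 0.0248 in HCD. Its 6 values overlapped, and the fold change of -1.38 ± 0.68 had an interval of -2.98 to 0.23 (edgeR unadjusted p 0.0816, adjusted p 0.839). Without ND 1 it came to -0.83. Col2a1, the main cartilage collagen, had 1, 5 and 1 counts in ND and 0 in all 3 HCD tumours, too few for a test. Of 6 cartilage and bone markers none was abundant, at a summed 0.972 to 5.26 CPM, and whether they contribute to these genes was not tested.

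Type IV, the basement membrane collagen, was carried by 2 chains. Col4a1 (chr8:11198423-11312826) measured 78.6, 63.7 and 68.1 FPKM in ND and 67.4, 99.9 and 62.1 in HCD, and its fold change was 0.11 ± 0.18 (SE; interval -0.33 to 0.54). Col4a2 (chr8:11312805-11449287), which joins it in the same triple helix, measured 48.7, 41.3 and 43.4 FPKM in ND and 41.4, 61.4 and 38.9 in HCD (0.07 ± 0.17). HCD 2 was high in both, and with it left out both fold changes became negative, -0.12 and -0.15. The first transcribed bases of the pair overlap by 22 bases on opposite strands in RefSeq, so their start sites lie back to back. The ratio of Col4a1 to Col4a2 ranged only from 1.54 to 1.63 over the 6 tumours. The endothelial markers had all 8 genes highest in HCD 2, at a summed 388 CPM against 172 to 217 elsewhere. Their part in the type IV values was not tested.

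The other type IV chains, which form networks such as that of the kidney glomerulus, were low. Col4a4 ranged from 0.108 to 0.151 FPKM in ND and 0.112 to 0.132 in HCD (-0.16 ± 0.27). Col4a3 had 3 to 13 counts, Col4a5 4 to 16 and Col4a6 0 or 1 per tumour and were not tested. Col4a3 shares 5.65% of its exon bases with an antisense gene, and the strand setting of the counting is not given in the sources used here and reads in the shared bases cannot be told apart. Of the multiplexins, basement membrane-zone collagens whose ends release endostatin-like fragments, Col18a1 measured 23.1, 18.5 and 19.3 FPKM in ND and 21.3, 18.1 and 17.3 in HCD (-0.12 ± 0.12; interval -0.40 to 0.15), and its fold change was -0.0060 without ND 1. It varied least among all collagens above 1 FPKM, by 1.34-fold. Col15a1 measured 7.72, 6.58 and 7.88 FPKM in ND and 7.44, 11.3 and 6.26 in HCD (0.16 ± 0.21).

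Type VI, which forms beaded filaments around cells, was led by Col6a1 at 23.1, 15.6 and 26.8 FPKM in ND and 20.8, 27.9 and 17.6 in HCD (log2 fold change 0.0011 ± 0.23). Col6a2 measured 8.30, 6.04 and 9.68 FPKM in ND and 9.04, 11.3 and 6.17 in HCD (0.12 ± 0.24). Col6a3, the longest chain, measured 11.0, 8.89 and 8.41 FPKM in ND and 8.02, 12.1 and 8.74 in HCD (0.01 ± 0.17). Col6a1 and Col6a2 are neighbours on chromosome 10 and HCD 2 was the highest tumour for all 5 tested type VI genes. The chains Col6a4, Col6a5 and Col6a6 sit next to each other on chromosome 9 and were low. Col6a5 (chr9:105856078-105960643), an alternative chain, had the smallest p of any collagen, from 6, 14 and 3 counts in ND and 19, 29 and 8 in HCD. Its groups overlapped, and the fold change of 1.47 ± 0.62 had an interval of -0.0037 to 2.95 (edgeR unadjusted p 0.0504, adjusted p 0.839). Without ND 2 and HCD 1 it had too few counts for a test. Col6a6 had 2, 12 and 0 counts in ND and 20, 23 and 2 in HCD. In Col6a5, Col8a2 and Col14a1 (8.57% of the tested collagens, against 11.7% of all tested genes, a split looked at after the values were seen) the 3 highest tumours were ND 2, HCD 1 and HCD 2, the ones with muscle and adipocyte transcripts. Whether these tissues account for that was not tested.

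Short-chain collagens form hexagonal lattices, and Col8a1 (chr16:57624258-57754737), a vessel and corneal matrix chain, was nearly all of the class. It measured 63.4, 68.5 and 73.7 FPKM in ND and 59.7, 74.5 and 52.5 in HCD, with means of 68.5 ± 5.17 (SD, n = 3) and 62.2 ± 11.2 and a fold change of -0.15 ± 0.12 (interval -0.45 to 0.14). Its partner Col8a2 measured 0.402, 1.40 and 0.871 FPKM in ND and 1.21, 2.40 and 0.419 in HCD (0.57 ± 0.65), which was 31.1 to 158 times lower than Col8a1. Col10a1, the collagen of hypertrophic cartilage, measured 0.866, 0.146 and 0.310 FPKM in ND and 0.345, 0.188 and 0.0764 in HCD (-1.14 ± 0.77), and its fold change was -0.16 without ND 1 and -1.74 without HCD 1. FACIT collagens, which sit on fibril surfaces, were led by Col12a1 at 6.52, 3.31 and 9.70 FPKM in ND and 4.98, 8.70 and 4.43 in HCD (-0.13 ± 0.41). Col14a1 measured 3.90, 4.99 and 4.54 FPKM in ND and 6.59, 8.19 and 2.72 in HCD (0.36 ± 0.35), with a fold change of 0.043 without HCD 2 and 0.69 without HCD 3. Col16a1 measured 2.16, 1.45 and 1.46 in ND and 1.87, 2.27 and 0.902 in HCD (-0.03 ± 0.33). The remaining tested FACIT genes, Col22a1, Col9a3, Col20a1 and Col9a1, had means of 1.25, 0.530, 0.494 and 0.293 FPKM. Col9a3 shares 6.07% of its exon bases with Tcfl5 on the other strand. Col9a2 had 1 count in all, and Col19a1 had 1 to 3 counts in each tumour.

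Of the remaining classes, Col13a1, a transmembrane chain, measured 0.113, 0.257 and 0.301 FPKM in ND and 0.237, 0.946 and 0.198 in HCD (1.02 ± 0.68). Its high value came from HCD 2 alone and the fold change was -0.037 without that tumour. Col23a1 ranged from 0.168 to 0.495 FPKM over the tumours (-0.50 ± 0.49), and its fold change ran from -1.0 without HCD 1 to -0.23 without ND 3. Col17a1, a hemidesmosome collagen of basal keratinocytes, had 1, 0 and 0 counts in ND and 1, 3 and 15 in HCD, with the 15 in HCD 3, the tumour with the highest keratinocyte sum. Col25a1, a neuronal membrane collagen, had 3, 24 and 4 counts in ND and 2, 42 and 7 in HCD. Col7a1, the anchoring fibril collagen of the skin, ranged from 0.127 to 0.316 FPKM (0.11 ± 0.38). Col28a1 (chr6:7997808-8192617), which has von Willebrand factor A domains, measured 0.364, 0.589 and 0.644 FPKM in ND and 0.604, 1.20 and 0.729 in HCD (0.66 ± 0.34; interval -0.16 to 1.47; edgeR unadjusted p 0.0984, adjusted p 0.839). Without HCD 2 its fold change was 0.33. Col26a1 had a mean of 0.0509 FPKM (0.09 ± 0.36).

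The tumours of a diet differed from each other in collagen level. Over the 20 tested collagens with a mean of 1 FPKM or more, the median ratio of the highest to the lowest tumour was 2.02, against 1.30 over 11774 tested genes at that level. HCD 2 was the highest tumour for 14 of the 20 (70.0%, against 23.0% of those genes), and HCD 3 the lowest for 11 (55.0%, against 15.6%). Both are HCD tumours, so these differences fall within a diet group. Of 9 fibroblast markers, 6 were highest in HCD 2 and 7 lowest in HCD 3. Dcn, which dominates the list, went the other way and was lowest in HCD 2, at 1405 CPM. With Dcn the list summed to 1750 CPM in HCD 2, 1694 in HCD 3 and 1842 to 2185 in the others. Without it the sum was 345 CPM in HCD 2, 135 in HCD 3 and 171 to 327 in the others. Of the endothelial genes, all 8 were highest in HCD 2. Macrophage genes summed to 435 CPM in HCD 2 against 186 to 304 elsewhere. Whether the amount of these cells accounts for the collagen values was not tested.

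**Figure D4:**
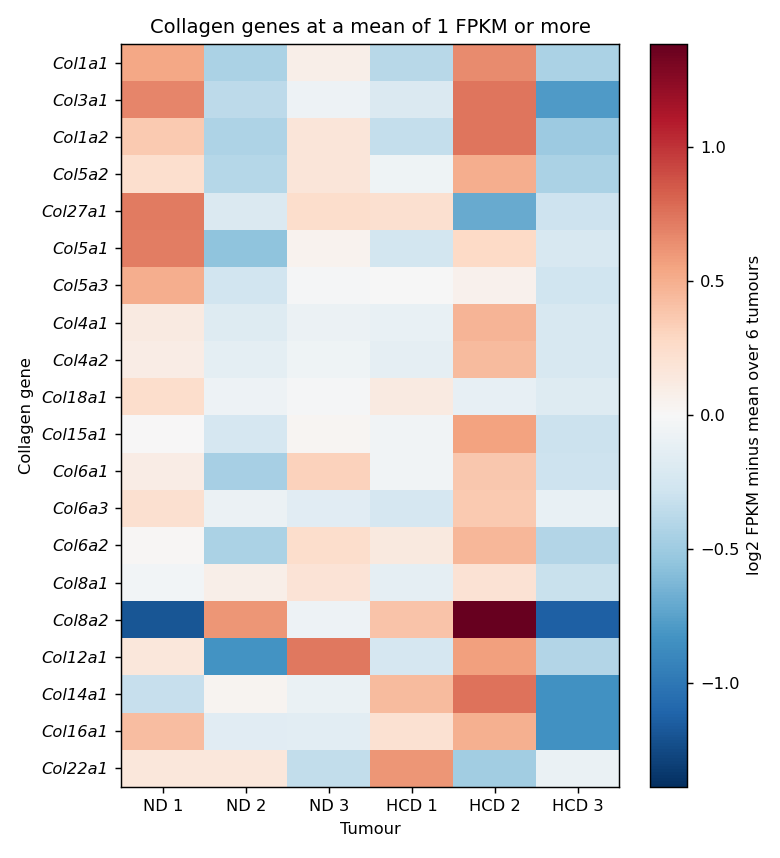
Log2 FPKM minus the gene's mean over 6 tumours, for the 20 collagen genes with a mean of 1 FPKM or more, with red above and blue below the mean. HCD 2 is red in most rows and HCD 3 blue in most, within the HCD group, while Col27a1 is lowest in HCD 2 and Col8a2 spreads most widely.

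Chains that combine in one collagen were compared by their ratio in each tumour. Col1a1 over Col1a2, whose chains combine in type I collagen, was 2.23 ± 0.165 (SD, n = 6) by FPKM and 0.859 ± 0.0636 by principal length, so its size depended on the length used while its spread of 1.20-fold did not. Col4a1 over Col4a2 was 1.60 ± 0.0345 on both scales, the tightest pair. Col6a1 over Col6a2 was 2.63 ± 0.213 by FPKM and 1.36 by principal length, and Col6a3 over Col6a1 was 0.445 ± 0.0894. Col5a1 over Col5a2 was 0.588 ± 0.124, highest in ND 1. Col8a1 over Col8a2 was 82.8 ± 49.7 and had the widest range of the pairs formed, at 5.07-fold. No diet difference of a ratio was tested.

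**Figure D5:**
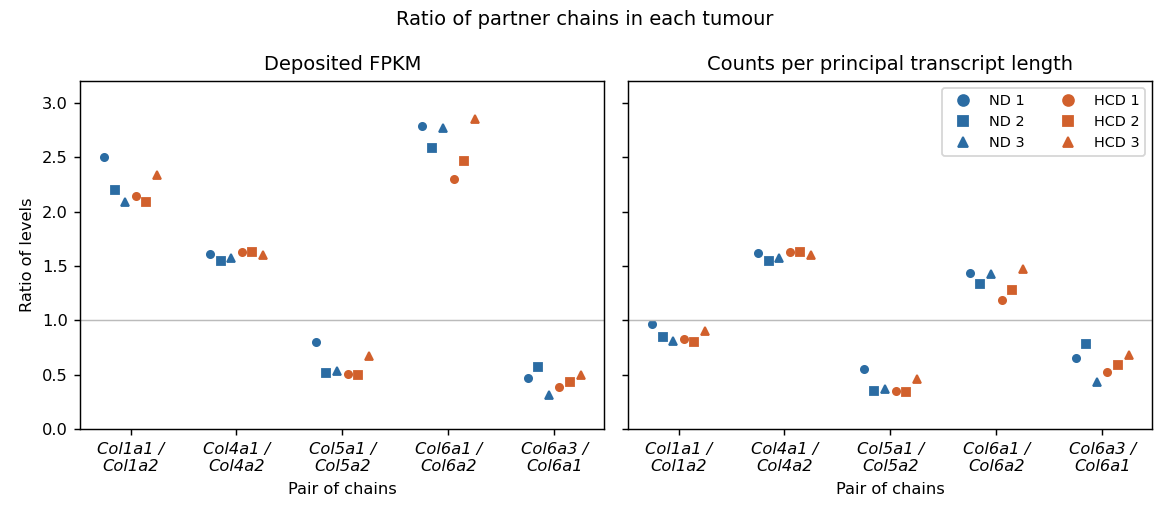
Ratio of levels of 5 pairs of collagen chains in each tumour (symbols), by deposited FPKM (left) and by counts per principal transcript length (right). Col4a1 over Col4a2 lies at 1.54 to 1.63 in both, while Col1a1 over Col1a2 moves from above 2 to below 1 between the scales.

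Genes that modify, fold, cleave, cross-link, bind or degrade collagen were compared the same way. Of 52 such genes, 48 were tested, 0 were called, and 15 had a positive and 33 a negative fold change (median -0.10), with 29 to 39 negative when 1 tumour was left out. Of all tested genes, 47% had a negative fold change, and their median was 0.01. By list, the hydroxylation and glycosylation enzymes had 12 of 14 negative (median -0.16), folding and secretion 6 of 8 (-0.13), cross-linking 4 of 5 (-0.31), receptors 5 of 9 (-0.01), propeptide cleavage 3 of 6 (-0.04) and proteases 3 of 6 (-0.04). P4hb, the shared subunit of prolyl 4-hydroxylase, was 1235 ± 149 CPM (SD, n = 3) in ND and 1131 ± 131 in HCD (log2 fold change -0.13 ± 0.12, SE). The collagen galactosyltransferase Colgalt1 was 176 ± 10.3 and 166 ± 6.90 (-0.08 ± 0.07). The export factors Sec24d and Mia3 were 160 ± 29.4 and 146 ± 14.8 in ND against 132 ± 3.83 and 128 ± 5.62 in HCD (-0.28 ± 0.13 and -0.19 ± 0.09). The cross-linking oxidases Loxl4 and Lox were 101 and 82.5 CPM in ND and 94.3 and 59.3 in HCD, and neither passed. Pcolce and Bmp1, which act on propeptides, Itgb1 and Ddr2, collagen receptors, and Mmp14 and Mmp13, proteases, had mean levels between 69.9 and 928 CPM in both diets.

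By unadjusted p under 0.05, 4 of the 48 were lower in HCD, all with no overlap between groups (8.33%, beside 3.48% and 6.36% of all genes), and they were named after their values were seen. The prolyl 4-hydroxylase subunits P4ha1 (178 ± 11.2 CPM, SD, n = 3, in ND and 142 ± 17.4 in HCD, fold change -0.33) and P4ha2 (90.9 ± 12.2 and 69.3 ± 10.7, -0.39), the lysyl hydroxylase Plod3 (159 ± 6.21 and 139 ± 3.18, -0.20) and the collagen-binding integrin Itga2 (-0.37) were these genes. Each had an adjusted p of 0.839 with edgeR's quasi-likelihood test, so none was called.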

How the data were processed

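RNA-seq libraries of 3 ND and 3 HCD tumours were used, with groups and numbers from the labels. Per the labels' protocols, total RNA was column-isolated and made into paired-end TruSeq libraries. The authors deposited raw counts and FPKM per gene, and per the submitters' processing notes their tools were edgeR, HTSeq, CASAVA 1.8 and TopHat2 2.0.9 with build mm10; annotation release and strand setting are not given in the sources used here. Counts were filtered (edgeR 4.0.16 filterByExpr, minimum count 10, minimum total 15), scaled by TMM and tested for diet in R 4.3.3 by the quasi-likelihood test with Benjamini-Hochberg adjustment over 15539 genes at 0.05. A count of 3 equals 0.114 to 0.147 CPM. Each 95% interval is for the log2 fold change and reflects only the spread between tumours. Its SE is the absolute log2 fold change divided by the square root of the test's F statistic. In counts simulated for this comparison over 15539 genes, the test recovered 70.0% of 2-fold and 98.0% of 4-fold changes among genes above 5 CPM, and 1.75% of its calls were false. Each gene was simulated independently, without variation shared between genes, and the changed genes were drawn at random above 5 CPM. The recovered shares need not hold for collagens, which differed more between tumours (median ratio 2.02 against 1.30 at a mean of 1 FPKM or more). DESeq2 1.42.0 and limma 3.58.1 were alternatives. Lengths of principal transcripts came from GENCODE M21, a scale added after the data were seen, and promoters from RefSeq GRCm38.p6. The members, classes, gene lists and tests were chosen with earlier results of these data known. Statistics are given for all tested fibrillar and type IV genes, up to 3 tested genes with the highest mean FPKM in each other class, the 2 collagens with the smallest p in each direction, and the 2 handling genes of each list with the highest mean CPM.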

Additional observations from a re-analysis of the deposited data

How the results depend on the processing

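No collagen passed the threshold in any of the fits run. DESeq2's Wald test called 6 genes in all, and leaving out 1 tumour at a time gave 0 to 2, with 2 without ND 2. Leaving out 1 tumour gave 13 to 29 negative collagens, 4 to 10 negative fibrillar genes and a type IV median of -0.12 to 0.18. The limma fits on log2(FPKM + 1) and log2(FPKM + 0.1) tested 20 collagens with a mean of 1 FPKM or more, and 10 were negative in each. Of 42 named genes, 18 kept their sign in every alternative and 24 did not, and none passed the threshold. Signs changed to -0.00511 in limma-voom, -0.0155 with the replicate block and -0.10 without HCD 1 and ND 2 for Col5a2, to 0.37 in limma-voom and 0.27 with the replicate block for Col11a1, to -0.00526 with upper quartile factors and -0.14 without HCD 1 and ND 2 for Col6a1, and to -0.00165 in limma-voom for Mmp13. Without HCD 1 and ND 2 they changed to 0.36 for Col11a2, -0.053 for Col6a2, -0.14 for Col7a1, 0.010 for Loxl4 and 0.025 for Ddr2. With 1 tumour left out, the fold changes ranged over -0.53 to 0.19 for Col1a1, -0.62 to 0.27 for Col3a1, -0.50 to 0.20 for Col1a2, -0.27 to 0.19 for Col5a2, -0.48 to 0.18 for Col5a1, -0.36 to 0.065 for Col5a3, -0.37 to 0.41 for Col11a2, -0.74 to 1.35 for Col11a1, -0.12 to 0.22 for Col4a1, -0.15 to 0.18 for Col4a2, -0.11 to 0.31 for Col15a1, -0.19 to 0.17 for Col6a1, -0.17 to 0.15 for Col6a3, -0.082 to 0.31 for Col6a2, -0.14 to 1.05 for Col8a2, -0.47 to 0.27 for Col12a1, -0.30 to 0.26 for Col16a1, -0.037 to 1.38 for Col13a1, -0.17 to 0.42 for Col7a1, -0.20 to 0.25 for Col26a1, -0.052 to 0.10 for Pcolce, -0.076 to 0.045 for Ddr2 and -0.11 to 0.45 for Mmp13. The replicate block gave 0 called genes and 788 at an unadjusted p under 0.05, against 823 without it. Same-numbered tumours had deviations correlated by -0.31, 0.14 and 0.08, and no tumour correlated best with its own number. With 3 tumours per diet, these values cannot decide whether the numbers mark a pairing. Where the setting left tumours out, fewer samples were fitted; in the other settings the cause was not tested. Among named collagens that kept their sign, the ranges with 1 tumour left out were -1.74 to -0.16 for Col10a1, 0.043 to 0.69 for Col14a1, -1.0 to -0.23 for Col23a1, -0.21 to -0.0060 for Col18a1, -0.29 to -0.061 for Col8a1, -0.29 to -0.083 for Col4a4, -0.79 to -0.25 for Col27a1, -2.07 to -0.83 for Col24a1, 0.33 to 0.85 for Col28a1 and 1.02 to 2.09 for Col6a5. Collagens at an unadjusted p under 0.05 numbered 0 in the main edgeR test with all tumours. They also numbered 0 with DESeq2 size factors, upper quartile factors, a stricter filter of 1 CPM, limma-voom and each limma fit on FPKM. The number was 1 with no filter, adjusted deviances, robust empirical Bayes or DESeq2's Wald test, and 2 with the replicate block. It was 3 without HCD 1 and ND 2, and 0 to 3 with 1 tumour left out. The count filter left 9 of 44 collagens untested, among them Col25a1 with 82 counts in all, at 2 to 42 per tumour.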
